A study of Mus musculus with 12 samples.

Results

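Pdk4, Angptl4, Cpt1a, Acadm, Acot1, Plin2, Cyp4a10 and Cyp4a14 are classic target genes of the peroxisome proliferator-activated receptors (PPARs) that serve the use of fatty acids. They were chosen by symbol as 8 of the 57180 genes counted in mouse kidney, and all 8 were among the 17163 genes that passed the filter on low counts. None of them passed the test, an adjusted p below 0.1 in edgeR, although the transcript of 1 of their receptors, Ppard, fell at both doses. The lowest p-value among them belonged to Pdk4, whose mean level was lower in both treated groups. The mean levels of the microsomal hydroxylases Cyp4a10 and Cyp4a14 were higher in the mice given 20 mg CBD/kg b.w. than in the controls, with wide and overlapping ranges.

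Kidney poly(A) RNA was sequenced from 12 male C57BL/6J mice with no engineered allele named in the labels. Cannabidiol (CBD), a non-intoxicating compound of hemp, was injected intraperitoneally each day for 28 days at 10 mg/kg (10CBD, 4 mice) or at 20 mg/kg (20CBD, 4 mice), and 4 control mice received placebo (Control, 0 mg/kg). Each library was made from a piece of kidney and not from sorted cells, so fewer cells of a type and less RNA per cell cannot be told apart. The libraries held 15417867 to 23532088 counts on genes.

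PPARs are nuclear receptors that bind fatty acids and their derivatives and act on DNA as partners of the retinoid X receptors. PPAR alpha and PPAR delta switch on genes for the uptake, storage and oxidation of fatty acids, most of all in fasting. The kidney's proximal tubule depends on fatty acid oxidation for its energy, and the Cyp4a enzymes of that segment also hydroxylate fatty acids and arachidonic acid at the far end of the chain.

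The receptor dimer is known to bind a direct repeat of a hexamer with a spacer of 1 base, AGGTCANAGGTCA. The stretches before the start sites of 4 members are shown. Pdk4 had the smallest p-values, and Plin2 is the only member with a match to the repeat in the 250 bases shown. The Cyp4a genes varied together. The sequences are the 250 bases upstream of the GENCODE vM39 start site, read 5′ to 3′ on the strand of the gene in GRCm39. Capitals mark a match to the repeat with up to 2 mismatches on either strand, or an exact hexamer AGGTCA on either strand.
Pdk4 (chr6:5496331-5496580, minus strand): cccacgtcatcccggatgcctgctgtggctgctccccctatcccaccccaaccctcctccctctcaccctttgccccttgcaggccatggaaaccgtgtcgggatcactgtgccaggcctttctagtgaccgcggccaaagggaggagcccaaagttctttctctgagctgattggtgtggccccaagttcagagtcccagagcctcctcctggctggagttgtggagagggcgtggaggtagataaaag
Plin2 (chr4:86588460-86588709, minus strand): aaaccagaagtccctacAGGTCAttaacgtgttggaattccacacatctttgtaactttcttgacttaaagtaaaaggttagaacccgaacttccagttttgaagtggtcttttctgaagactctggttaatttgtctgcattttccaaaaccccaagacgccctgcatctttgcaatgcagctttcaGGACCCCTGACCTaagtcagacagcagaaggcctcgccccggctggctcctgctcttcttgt
Cyp4a10 (chr4:115375211-115375460, plus strand): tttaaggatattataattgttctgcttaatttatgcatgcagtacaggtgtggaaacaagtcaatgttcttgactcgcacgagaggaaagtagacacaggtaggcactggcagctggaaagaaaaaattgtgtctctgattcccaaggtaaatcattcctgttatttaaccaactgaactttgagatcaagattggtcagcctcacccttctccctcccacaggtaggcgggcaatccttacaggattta
Cyp4a14 (chr4:115353345-115353594, minus strand): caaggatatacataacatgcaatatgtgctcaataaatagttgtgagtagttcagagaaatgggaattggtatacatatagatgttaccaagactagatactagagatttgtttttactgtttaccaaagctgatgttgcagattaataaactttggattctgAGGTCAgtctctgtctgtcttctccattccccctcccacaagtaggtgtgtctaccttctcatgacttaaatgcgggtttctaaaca

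In the window from 250 bases before to 50 bases after the start, Plin2 was the only member with a match to the repeat, with its first base at position -62 from the start, on the opposite strand. Such a match was present in 742 of 21672 protein-coding promoters (3.42%). The exact hexamer occurred in the windows of Cpt1a (1), Plin2 (2, of which 1 lies inside the repeat match) and Cyp4a14 (1), and in 15.1% of all promoters. In the wider window of 2000 bases on each side of the start, with at most 1 mismatch, only Cyp4a10 among the members held a match. The same was true of 6.87% of the protein-coding genes scanned. The match of Cyp4a10 lay at chr4:115374024-115374036, with its first base at position -1437 from the start, on the opposite strand. It is shown here on the strand of the gene with the match in capitals.
Cyp4a10 match: ctgtaaatTGTCCTCTGACCTccacacat
These matches describe letters in the reference genome of the strain, and binding was not measured.

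Pdk4 encodes pyruvate dehydrogenase kinase 4, which holds back the entry of pyruvate into the citric acid cycle and so spares glucose when fat is burned. The gene (ENSMUSG00000019577) spans chr6:5483097-5496339 on the minus strand. Its level in CPM (counts relative to the library total, scaled by the trimmed mean of M values) was 240, 101, 121 and 76.8 in the 4 control mice. It was 41.9, 102, 51.4 and 76.2 CPM in 10CBD and 60.9, 112, 58.2 and 45.8 CPM in 20CBD. Control replicate 1 stood well above every other mouse, and the treated ranges reached into that of the other controls. The group means were 135 ± 72.7 CPM (SD, n = 4) in Control, 67.8 ± 26.9 CPM in 10CBD and 69.2 ± 29.1 CPM in 20CBD.

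The log2 fold change of Pdk4 was -0.99 (SE 0.36) at 10 mg and -0.96 (SE 0.36) at 20 mg. Neither passed, with edgeR adjusted p = 0.812 and 0.474 and unadjusted p = 0.0141 and 0.0166. The two-sided exact permutation p was 0.0857 at each dose. All 8 treated mice lay below the control mean, but so did Control replicates 2, 3 and 4. For both doses against Control the log2 fold change was -0.98 (edgeR adjusted p = 0.472, two-sided exact permutation p = 0.0222). Without Control replicate 1 the log2 fold change was -0.55 at 10 mg, -0.52 at 20 mg and -0.54 for both doses. With the percentage of mitochondrial counts added to the model it was -1.19 at 20 mg and passed (edgeR adjusted p = 0.0318), in a fit that called 1386 of the 17163 genes (8.08%) at that dose, against 52 without the percentage. At 10 mg the same fit gave -0.91 and Pdk4 did not pass (edgeR adjusted p = 0.475).

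Angptl4 and Plin2 act on the side of fat supply and storage. Angptl4 encodes a secreted inhibitor of lipoprotein lipase, and Plin2 encodes a coat protein of lipid droplets. Angptl4 (chr17:33992724-34000804, minus strand) was at 114, 52.2, 115 and 80.4 CPM in Control, 55.6, 106, 87.2 and 95.4 CPM in 10CBD and 109, 139, 86.0 and 112 CPM in 20CBD. All 4 mice of 20CBD lay above the mean of 10CBD, the lowest by a small margin, but the ranges of the 3 groups overlapped. Its log2 fold change was -0.08 (SE 0.24) at 10 mg and 0.30 (SE 0.24) at 20 mg, with edgeR adjusted p = 0.980 and 0.802. Leaving out 1 library moved the value at 20 mg to between 0.11 and 0.44. Plin2 (chr4:86565912-86588459, minus strand) was at 210, 131, 174 and 111 CPM in Control, 116, 126, 154 and 108 CPM in 10CBD and 141, 190, 231 and 129 CPM in 20CBD. The 4 mice of 10CBD lay below the control mean, while those of 20CBD lay on both sides of it. The log2 fold change of Plin2 was -0.31 (SE 0.21) at 10 mg and 0.14 (SE 0.21) at 20 mg, with edgeR adjusted p = 0.893 and 0.909, and leaving out 1 library moved the value at 10 mg to between -0.45 and -0.13.

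Cpt1a, Acadm and Acot1 belong to the handling of fatty acyl chains. Cpt1a encodes carnitine palmitoyltransferase 1A, the gate for long chains into mitochondria, and Acadm encodes the medium-chain acyl-CoA dehydrogenase of beta oxidation. Cpt1a (chr19:3371853-3437996, plus strand) was at 479, 325, 461 and 456 CPM in Control, 385, 519, 415 and 396 CPM in 10CBD and 491, 473, 281 and 433 CPM in 20CBD. Its log2 fold change was -0.01 (95% interval -0.39 to 0.38) at 10 mg and -0.04 (-0.43 to 0.35) at 20 mg. Acadm (chr3:153627989-153650317, minus strand) was at 1369, 1261, 1164 and 1030 CPM in Control, 1483, 1200, 1162 and 1218 CPM in 10CBD and 1239, 987, 1388 and 1256 CPM in 20CBD. The log2 fold change of Acadm was 0.07 (-0.25 to 0.39) at 10 mg and 0.01 (-0.30 to 0.33) at 20 mg. Acadm varied least of the members across mice, with a coefficient of variation of 11.5% over the 12 libraries. The intervals of both genes lie within a 2-fold change in either direction at both doses.

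Acot1 encodes a cytosolic acyl-CoA thioesterase that frees fatty acids from coenzyme A. It lies at chr12:84056256-84065145 on the plus strand and was at 169, 103, 150 and 93.8 CPM in Control, 103, 131, 156 and 115 CPM in 10CBD and 159, 159, 179 and 151 CPM in 20CBD. The 4 mice of 20CBD were close to each other (162 ± 11.8 CPM, SD) and above the control mean, and 3 of them lay below Control replicate 1. Its log2 fold change at 20 mg was 0.33 (SE 0.18, edgeR adjusted p = 0.675), and at 10 mg it was -0.03 (SE 0.18, edgeR adjusted p = 0.987). Leaving out 1 library moved the value at 20 mg to between 0.20 and 0.50. Of all 150-base windows of the Acot1 transcript, 12.3% also occur in Acot2, Acot3 or Acot5. Reads from them may not be assignable to Acot1 alone, and the values of Acot1 are uncertain to that extent.

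Cyp4a10 and Cyp4a14 encode fatty acid omega-hydroxylases and lie near each other on chromosome 4, at chr4:115375461-115390849 (plus strand) and chr4:115343397-115353344 (minus strand). Cyp4a10 was at 1243, 659, 1193 and 689 CPM in Control, 635, 1212, 946 and 1054 CPM in 10CBD and 1576, 1340, 1026 and 1138 CPM in 20CBD. Cyp4a14 was at 710, 214, 597 and 179 CPM in Control, 199, 545, 373 and 398 CPM in 10CBD and 915, 930, 463 and 449 CPM in 20CBD. In both genes Control replicates 1 and 3 were high and replicates 2 and 4 low, so the controls alone spanned 1.88-fold for Cyp4a10 and 3.96-fold for Cyp4a14. The log2 fold change of Cyp4a10 was 0.02 (SE 0.24) at 10 mg and 0.43 (SE 0.24) at 20 mg, with edgeR adjusted p = 0.992 and 0.689. That of Cyp4a14 was -0.17 (SE 0.42) at 10 mg and 0.70 (SE 0.42) at 20 mg, with edgeR adjusted p = 0.974 and 0.719. The 95% interval of Cyp4a14 at 20 mg ran from -0.20 to 1.59, so neither no change nor a doubling lay outside it. Without Control replicate 1 its log2 fold change at 20 mg was 1.07, and without Control replicate 4 it was 0.44. Of the 150-base windows of the Cyp4a10 transcript, 4.69% are shared with Cyp4a31 or Cyp4a32, and of Cyp4a14 none.

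**Figure D1:**
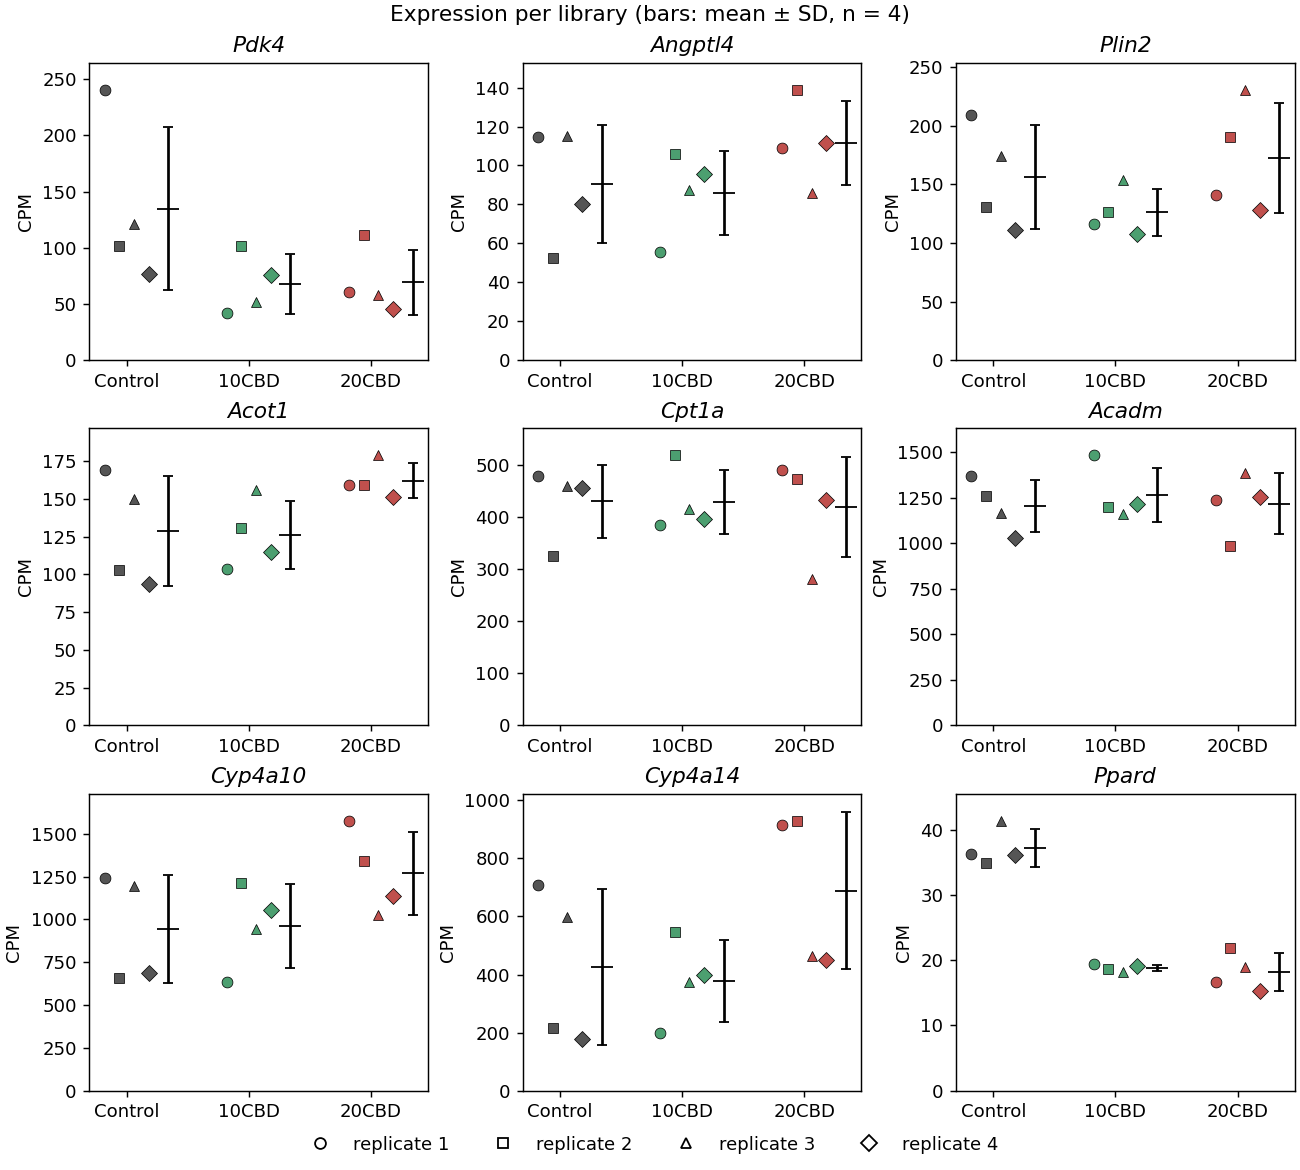
Levels of the 8 target genes and of Ppard in CPM (vertical axes, from 0) in each of the 12 libraries, by group, with marker shapes for the replicate numbers and bars for the mean ± SD of 4 mice. The ranges of the 3 groups overlap for all 8 target genes, while all treated mice lie below all control mice for Ppard.

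Counted together, 0 of the 8 genes passed at 10 mg, where 0.0291% of all genes tested did, and 0 of 8 at 20 mg, where 0.303% did (edgeR, adjusted p below 0.1). DESeq2 and limma-voom called 0 of the 8 as well, at each dose, between the doses and for both doses. Of all genes, DESeq2 called 0.233% at 10 mg and 1.06% at 20 mg, and limma-voom 0.0291% and 0.280%. With no filter on low counts edgeR called Pdk4 at both doses (adjusted p = 4.91e-07 at 20 mg) and Cyp4a14 at 20 mg (adjusted p = 0.0107), in a fit of 40012 genes that called 0.827% of them at 10 mg and 1.04% at 20 mg, and the cause was not tested. At an unadjusted p below 0.05, 1 of 8 (Pdk4) was lower at 10 mg against 5.67% of all genes in either direction, and 1 of 8 (Pdk4) at 20 mg against 8.45%. Between the doses 0 of 8 passed (0% of all genes) and 0 of 8 had an unadjusted p below 0.05 (6.31% of all genes). For both doses against Control, 0 of 8 passed (0.14% of all genes) and 1 of 8 had an unadjusted p below 0.05 (7.04%). No member had ranges without overlap between Control and either dose, against 3.19% of all genes at 10 mg and 5.3% at 20 mg. The median log2 fold change of the 8 genes was -0.05 at 10 mg and 0.22 at 20 mg, beside 0.01 at each dose over all genes tested. At 20 mg 6 of the 8 estimates were above 0, as were 9017 of the 17163 genes tested. The control mice are shared by both comparisons.

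The doses could also be compared directly. For Angptl4, Acot1, Plin2, Cyp4a10 and Cyp4a14 all 4 mice of 20CBD lay above the mean of 10CBD. The share of all genes with that order was not counted. For Angptl4 the margin was small, with the lowest 20CBD mouse at 85.998 CPM beside a 10CBD mean of 85.976 CPM and median of 91.3 CPM. Several of these members varied together (Pearson's r = 0.97 for Cyp4a10 and Cyp4a14), so they are not separate observations. The log2 fold change between the doses was 0.87 (95% interval -0.03 to 1.76) for Cyp4a14, 0.45 (-0.002 to 0.91) for Plin2 and 0.40 (-0.11 to 0.92) for Cyp4a10. It was 0.37 (-0.14 to 0.89) for Angptl4 and 0.36 (-0.03 to 0.75) for Acot1. None of these passed, the smallest edgeR adjusted p being 0.785 (Plin2), and every interval includes 0. Pdk4, Cpt1a and Acadm were at 0.03, -0.03 and -0.06. With the percentage of mitochondrial counts in the model the values between the doses were 0.38 for Cyp4a14, 0.15 for Cyp4a10 and 0.0831 for Angptl4. For Plin2 and Acot1 that model gave 0.52 and 0.35. The median over the 8 genes, without the percentage in the model, was 0.37, beside -0.00331 over all genes tested.

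Ppard, which encodes PPAR delta (chr17:28451674-28520448, plus strand), was at 36.3, 34.9, 41.4 and 36.1 CPM in Control, 19.4, 18.6, 18.2 and 19.1 CPM in 10CBD and 16.7, 21.9, 19.0 and 15.2 CPM in 20CBD. No treated mouse reached the lowest control. Ppard fell by 0.98 on the log2 scale at 10 mg (SE 0.12, edgeR adjusted p = 0.00899) and by 1.03 at 20 mg (SE 0.13, edgeR adjusted p = 0.00346). Ppara, which encodes the receptor most tied to these genes in liver, had log2 fold changes of 0.13 (95% interval -0.27 to 0.53) and -0.00275 (-0.40 to 0.40), and Pparg, the receptor of fat cells, had -0.13 and -0.27 at levels of at most 2.05 CPM. Of the 14 receptors and partners on the list, only Ppard passed at either dose.

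At 10 mg the 95% interval of 6 members lay above the log2 fold change of Ppard, and those of Pdk4 and Cyp4a14 reached it. At 20 mg the intervals of 7 members lay above it, and that of Pdk4 reached it. These counts leave out the interval of Ppard itself, -1.25 to -0.72 at 10 mg. The lower end for Plin2 at 10 mg (-0.77) lay within that interval. Across the 8 treated mice, which cover only 15.2 to 21.9 CPM of Ppard, Pearson's r of log2 CPM between Ppard and a member ran from -0.33 (Acadm) to 0.57 (Pdk4). The exact permutation p for Pdk4 was 0.137 (Spearman's rho 0.33, exact permutation p = 0.428), and the Benjamini-Hochberg value over the 8 relations was 0.949 for Pearson's r and 0.991 for rho. Without the 2 mice farthest from the median of Ppard, r for Pdk4 was -0.06, so the relation rested on those mice. Those 2 mice also set the span of r, since without them it was -0.81 for Cyp4a14 (from 0.04), -0.78 for Cyp4a10 (from -0.18) and -0.61 for Angptl4 (from -0.03). Of the 8 exact permutation p-values for Pearson's r over all 8 mice, 0 were below 0.05.

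**Figure D2:**
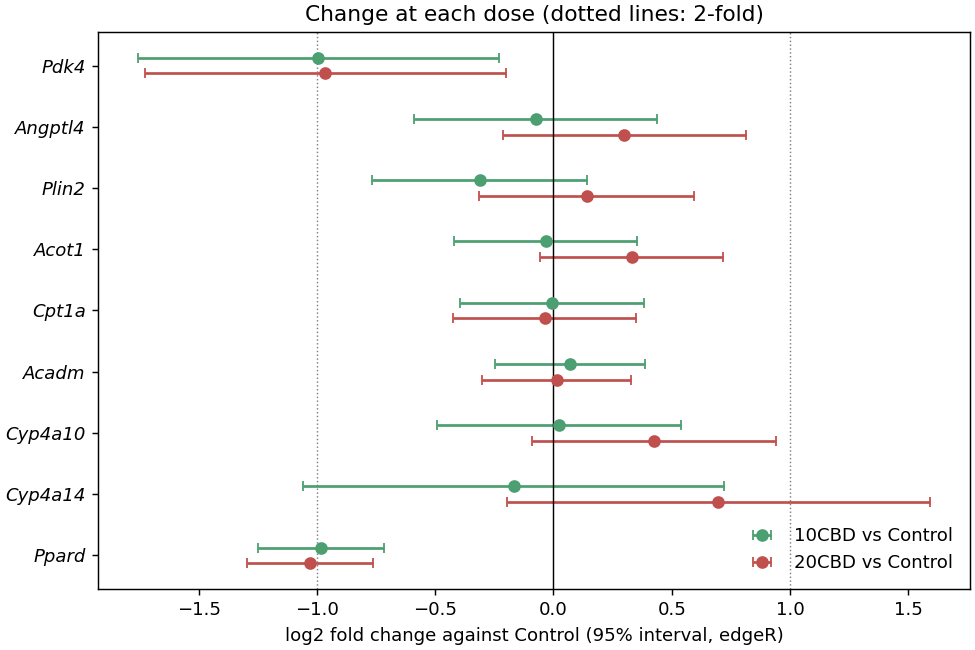
Log2 fold change against Control (horizontal axis) with its 95% interval from edgeR for the 8 target genes and Ppard, in green for 10CBD and in red for 20CBD. Both intervals of Ppard lie below 0 around -0.98 and -1.03, those of Pdk4 are wide around similar values, and those of the other members include 0.

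**Figure D3:**
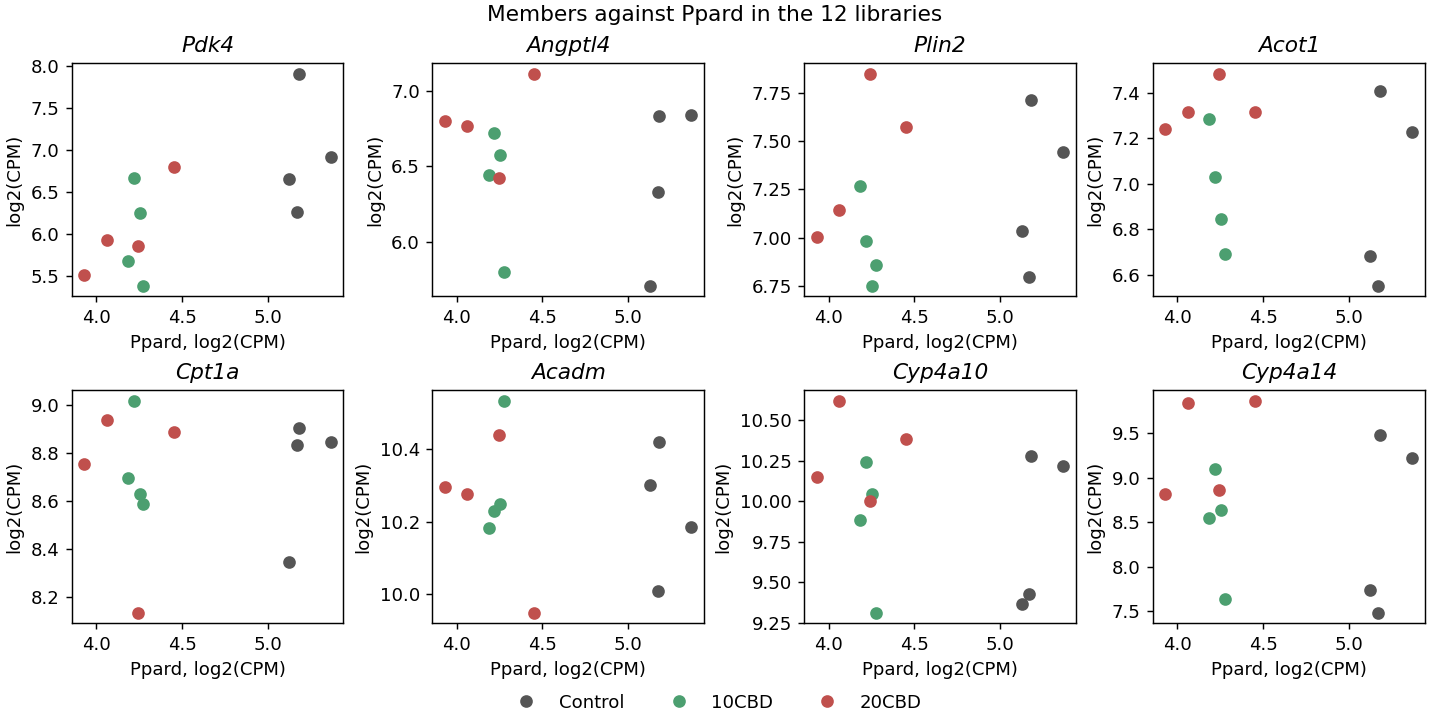
Level of each target gene against that of Ppard, both in log2(CPM), with 1 point per mouse and colours for the groups. The treated mice form a cloud at low Ppard apart from the controls, and in each panel the range of the controls on the vertical axis overlaps that of the treated mice.

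The other genes of the pathway were taken from a list. Of 66 further PPAR targets (peroxisomal and mitochondrial oxidation, transport, lipid droplets), 65 were tested and 0 passed at 10 mg or at 20 mg with edgeR. At an unadjusted p below 0.05, 1 was higher and 2 were lower at 10 mg, where 5.67% of all genes had such a p, and 3 were higher and 3 lower at 20 mg, where 8.45% did. The smallest p-values at 10 mg belonged to Plin4, a droplet coat protein (log2 fold change -0.85), Acsl1, a long-chain acyl-CoA synthetase (-0.47), and Pank1, a kinase of coenzyme A synthesis (0.32). At 20 mg they belonged to Plin4 (-1.09), Ucp2, a mitochondrial carrier (0.64), and Fabp3, a fatty acid-binding protein (0.48), with edgeR adjusted p = 0.289, 0.419 and 0.503. DESeq2 called Plin4 at 20 mg (adjusted p = 0.0430), in a fit that called 1.06% of all genes at that dose. Fgf21, a hormone of fasting, was at 0 in 7 of 12 libraries and was not tested. The median log2 fold change of the 65 genes was -0.04 at 10 mg and 0.05 at 20 mg.

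Levels per kilobase of exon in Control, with all annotated exons of a gene in its length, put Cyp4a10 first with 448 ± 149 CPM per kb (SD, n = 4). For some members that length is far above that of the canonical transcript. It was 6303 against 2058 bases for Acadm, 7684 against 2050 for Plin2 and 10940 against 6594 for Cpt1a. For Cyp4a10 it was 2112 against 2109 bases. The order of the genes therefore depends on the length used, and their levels are only roughly comparable. Acadm followed with 191 ± 22.9 and Cyp4a14 with 160 ± 101 CPM per kb. Then came Cpt1a with 39.3 ± 6.49, Pdk4 with 35.5 ± 19.1 and Acot1 with 32.8 ± 9.30 CPM per kb. Plin2 with 20.4 ± 5.75 and Angptl4 with 20.1 ± 6.71 CPM per kb were the lowest. Only the steps from Cyp4a10 to Acadm and from Cyp4a14 to Cpt1a separated neighbours whose ranges did not overlap.

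Part of the spread among mice was common to several members. Over the 12 libraries, log2 CPM of Cyp4a10 and Cyp4a14 had Pearson's r = 0.97 (Spearman's rho 0.94), and 0.96 with the group means removed. Angptl4 followed Cyp4a10 with r = 0.90 (rho 0.87), and Acot1 followed Plin2 with r = 0.82 (rho 0.83). The genes most like Cyp4a14 among 14684 genes with a mean of at least 1 CPM included Cyp4a10 and Slc25a20 (r = 0.93), the carnitine-acylcarnitine carrier. Those most like Cyp4a10 included Cyp4a14 and Angptl4. Those most like Angptl4 were Acot3 (r = 0.95), Slc25a20 (r = 0.94) and Slc48a1 (r = 0.93), and those most like Acot1 were Acot2 (r = 0.92), Ppp2r5c (r = 0.86) and Gm15441 (r = 0.86).

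For the remaining members the most similar genes were not on the lists of targets. They were Ddhd2, Klf10 and Pnrc1 for Pdk4 (r = 0.88 to 0.89), Vwa8, Prrg4 and Tasor2 for Cpt1a (r = 0.95 to 0.96), Rps3a1, Golga7 and Tmem128 for Acadm (r = 0.90 to 0.93), and Slc25a22, Mdk and C2 for Plin2 (r = 0.87 to 0.93). These r values are descriptions over 12 libraries that share their preparation, and the genes were picked for a high r.

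The share of counts on mitochondrial genes fell into separate ranges, 3.53% to 5.77% in 4 libraries (Control replicate 2, 10CBD replicates 1 and 3, 20CBD replicate 3) and 12.8% to 23.4% in the other 8. Angptl4 was at 70.3 ± 18.9 CPM (SD) in the 4 and at 109 ± 16.8 CPM in the 8 libraries, Cpt1a at 351 ± 60.1 and 464 ± 37.4 CPM, and Cyp4a10 at 816 ± 199 and 1181 ± 253 CPM. Cyp4a14 was at 312 ± 128 and 590 ± 257 CPM. Acadm was at 1324 ± 141 CPM in the 4 and 1183 ± 123 CPM in the 8. Pdk4 was at 63.2 ± 26.2 and 104 ± 60.6 CPM, Acot1 at 135 ± 38.3 and 141 ± 25.8 CPM, and Plin2 at 158 ± 50.9 and 149 ± 38.1 CPM. With the share as a covariate the log2 fold change at 20 mg was 0.44 for Cyp4a14, 0.29 for Cyp4a10 and 0.16 for Angptl4. It was 0.33 for Acot1 and 0.17 for Plin2, and none of these genes passed. Within the 8 libraries of high share, r between Cyp4a10 and Cyp4a14 was again 0.97. The part of the mitochondrial share in the group values was not tested beyond the fits with and without it.

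**Figure D4:**
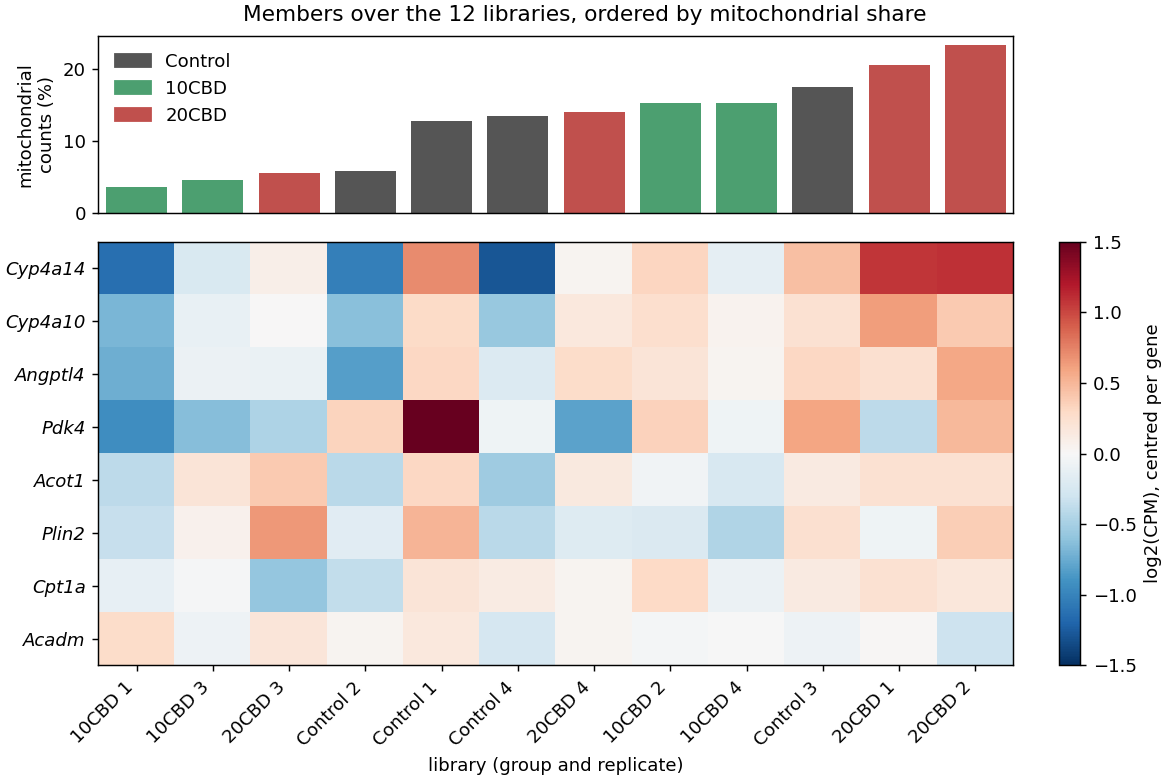
Share of counts on mitochondrial genes in percent (upper bars, coloured by group) and log2(CPM) of the 8 members centred per gene (lower map, red above and blue below the gene's mean), with the 12 libraries in order of that share. Cyp4a14, Cyp4a10 and Angptl4 change colour together, and Control replicate 1 is the darkest red for Pdk4.

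The tissue was checked against 8 kidney markers, whose summed level was at least 23445 CPM in every library and of which 0 passed at either dose. At an unadjusted p below 0.05 in edgeR, 2 of them were lower at 20 mg, where 8.45% of all genes had such a p. They were Lrp2 (log2 fold change -0.76) and Slc12a3 (-0.48). Kap, an androgen-regulated gene of the proximal tubule, was at 16215 CPM or more in the controls. Adipocyte markers, which can come with the fat around the kidney, summed to 127 to 358 CPM in Control, 85.2 to 183 CPM in 10CBD and 81.2 to 131 CPM in 20CBD. All 9 tested were lower at 20 mg with an unadjusted p below 0.05, where 8.45% of all genes had such a p in either direction. Of these markers 1, Car3, fell (log2 fold change -1.97, edgeR adjusted p = 0.0516), where 0.303% of all genes passed. Leptin (Lep) was at 0 in 6 libraries. Pdk4, Plin2, Angptl4 and Plin4 are also expressed in fat, and the part of adipocyte RNA in their values was not tested. Markers of adrenal cortex summed to at most 5.92 CPM and those of skeletal muscle to at most 1.58 CPM, with Cyp11b2 at 0 in 11, Cyp21a1 in 10, Cyp11b1 in 7, Ckm in 7 and Myh4 in 9 libraries. Hepatocyte markers summed to 862 to 1480 CPM, but Cyp2e1 alone held at least 747 CPM in every library and Alb at most 19.0 CPM. Of the hepatocyte markers 0 of 5 passed, and Tat was at 0 in 6 libraries. Of 7 markers each, 0 of the straight (S3) and 2 of the convoluted (S1 and S2) proximal tubule passed at 20 mg, where 0.303% of all genes did. Of the convoluted markers, Gatm fell by 1.00 and Slc5a2 by 0.61 on the log2 scale. Of 8 clock output genes, 5 rose at 20 mg (Dbp, Per3, Nr1d1, Nr1d2 and Ciart), beside 0.303% of all genes called. Dbp was at 2.36 ± 0.70 CPM (SD) in Control and 24.0 ± 2.22 CPM in 20CBD. Of 8 genes induced by glucocorticoids, 1 passed at 20 mg, Ddit4 (log2 fold change 1.09), beside 0.303% of all genes. With an unadjusted p below 0.05, 6 were higher, beside 8.45% of all genes in either direction. Of the 8 estimates at that dose, 7 were above 0 and 1, that of Sgk1, was below (-0.28). Pdk4 and Angptl4, known to answer to glucocorticoids as well, were at -0.96 and 0.30 at 20 mg. The part of glucocorticoids in their values was not tested.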

How the data were processed

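Poly(A) RNA of 12 kidneys was sequenced as paired reads. Per the submitters' notes the authors checked reads with FastQC 0.11.9, mapped them with STAR 2.7.5c to GRCm39 and counted them with HTSeq 1.99.2. The deposited values are whole counts per Ensembl gene, not normalized. The annotation release and strand setting are not given in the sources used here. Unassigned reads were left out (12.1% to 19.9% of unique reads had no feature). Identifiers were matched to GENCODE vM39 (99.0% of 57180).

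Counts were filtered by filterByExpr (17163 genes), scaled by TMM and tested with edgeR 4.0.16 (R 4.3.3) by the quasi-likelihood test over all 12 libraries. P-values were adjusted by Benjamini-Hochberg over all genes tested, and an adjusted p below 0.1 was called. Log2 CPM used a prior count of 2. Exact permutation tests were two-sided (4 against 4 mice cannot go below 0.0286). Intervals are at 95%. The fit was tested on simulated data. Alternatives used DESeq2 1.42.0, limma 3.58.1, other scalings and filters, covariates and fewer libraries.

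The members and lists were chosen with earlier results of these data known. Named are all members, Ppara, Ppard and Pparg, called genes of each list, markers at 0, the 3 other targets of smallest p at each dose, and for each member the 3 genes of highest Pearson r, of which some are not reported here. Kap, Lep and the paralogs were named beside these.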

Additional observations from a re-analysis of the deposited data

Results flagged for a closer look

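Of 27 groups of 4 mice examined (8 members and Ppard, 3 groups each), 1 held a mouse far from the others by Dixon's ratio. Cpt1a in Control was at 325 CPM in replicate 2, with a gap to the next mouse of 0.850 of the group's range, above the critical value for 4 samples. Chance alone sets apart about 1 in 20 such groups. That library also had a low mitochondrial share of counts (5.77%), and the part of that share in the value was not tested.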

How the results depend on the processing

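The lowest count of a member in any library was 812, and the part of depth in the width of the intervals was not tested. Of 819 alternative values for single genes, 749 kept direction and side of the threshold, 63 turned sign and 7 newly passed. Of 233 alternative counts, 19 moved.

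Without a filter on low counts (40012 genes tested), 1 member passed at 10 mg, 2 at 20 mg, 1 between the doses and 1 for both doses, and of the other targets 3, 4, 3 and 2, beside 0.827%, 1.04%, 0.64% and 0.982% of all genes. With the mitochondrial share as covariate, 1 member (Pdk4) passed at 20 mg and 1 for both doses, and 7 and 2 of the 65 other targets, beside 8.08% and 1.61% of all genes. DESeq2 called 1 other target at 20 mg, 1 between the doses and 1 for both doses, beside 1.06%, 0.0699% and 0.792% of all genes. In libraries with at least 10% mitochondrial counts, 1 other target passed at 20 mg and 1 for both doses, beside 0.611% and 0.383% of all genes. Leaving out 1 library, other targets called for both doses ran from 0 to 1 (1 without Control replicate 3, beside 0.171% of all genes). Members correlated with Ppard ran from 0 to 1 (1 without 10CBD replicate 1). The cause was not tested.

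Some log2 fold changes turned sign. Pdk4 between the doses was -0.0270 with the replicate block, -0.28 with the covariate and -0.29 in libraries with at least 10% mitochondrial counts. With the covariate Angptl4 was 0.0720, Cpt1a 0.10 and Cyp4a14 0.0544 at 10 mg, and Acadm 0.0434 between the doses. In libraries with at least 10% mitochondrial counts, Cpt1a was 0.00221 at 20 mg and 0.0311 between the doses, Acadm -0.0307 at 20 mg and -0.00421 for both doses, and Plin2 -0.10 at 20 mg. Limma-voom gave Cpt1a 0.00159 and Cyp4a14 0.00291 at 10 mg. With at least 10 counts in every library Cpt1a was 0.00262 at 10 mg. Without a filter Acadm was -0.00107 at 20 mg and Cyp4a10 -0.00346 at 10 mg.

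Leaving out 1 library gave, at 10 mg, -0.0173 to 0.14 for Acadm, -0.16 to 0.13 for Acot1, -0.27 to 0.0840 for Angptl4, -0.12 to 0.0530 for Cpt1a, -0.12 to 0.19 for Cyp4a10 and -0.42 to 0.20 for Cyp4a14. At 20 mg it gave -0.0565 to 0.10 for Acadm, -0.15 to 0.11 for Cpt1a and -0.0312 to 0.32 for Plin2. Between the doses it gave -0.12 to 0.0333 for Acadm, -0.12 to 0.12 for Cpt1a, -0.30 to 0.29 for Pdk4 and -0.15 to 0.0288 for Ppard. For both doses it gave -0.0290 to 0.11 for Acadm, -0.0796 to 0.25 for Angptl4, -0.14 to 0.0524 for Cpt1a and -0.22 to 0.0925 for Plin2.

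The labels do not say whether equal replicate numbers pair mice across the groups. Deviations of same-numbered libraries correlated from -0.33 to 0.32 and those of different-numbered libraries from -0.43 to 0.45. Since these ranges overlap, they cannot decide whether mice were paired. With the replicate block, 0 members were called, Pdk4 was at -0.97 and -0.999 and Ppard at -0.98 and -1.04 at 10 and 20 mg.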
